A study of Mus musculus with 6 samples.

Results

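Mammary lineage transcription factors are the nuclear proteins that set and hold the identity of the cells lining the mammary duct. They were followed here in TuBo cells, a model of HER2+ breast cancer established from a tumor that arose in a BALB/c-MMTV-NeuT mouse, whose transgene places activated rat neu under the mouse mammary tumor virus promoter. Members were taken by symbol from the deposited counts, and all 10 (Gata3, Elf5, Foxa1, Esr1, Pgr, Trp63, Sox9, Sox10, Ehf and Tfap2c) were found among 21960 genes. RNA-Seq was available for 3 mock libraries, labelled as the wild-type Balb-NeuT line, and 3 p140Cap libraries, from the same line overexpressing the p140Cap adaptor protein. By the study's methods, p140Cap cells carry a p140Cap cDNA in the retroviral vector pBabe-puro, were selected with puromycin, and are a pool of clones grown from single cells, while the treatment of the mock cells is not stated for this experiment. The comparison asks which transcripts differ between p140Cap and mock cells. With the mock treatment unknown, effects of p140Cap expression and of selection or cloning cannot be told apart. The submitters call the samples mice in one label and cell lines in the others, and nothing in them says that replicates came from separate cultures, so the p-values measure the spread between these libraries, which may be technical.

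In the normal gland, luminal cells line the duct and divide into hormone-sensing cells and alveolar cells that make milk, while basal cells form an outer contractile layer. GATA3 and AP-2γ (encoded by Tfap2c) maintain luminal cells, and FOXA1 opens chromatin for the estrogen receptor (Esr1), which in turn induces the progesterone receptor (Pgr) in hormone-sensing cells. ELF5 drives the alveolar fate, EHF is a related epithelial ETS factor, p63 (Trp63) specifies basal cells, and the SOXE factors SOX9 and SOX10 are linked to progenitor and stem-like states.

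Totals of gene reads ranged from 33058719 to 75506562 in mock and from 13770385 to 15364850 in p140Cap libraries, without overlap, so rare transcripts were read less precisely in p140Cap cells. Levels are given as CPM, a gene's share of its library's reads after TMM adjustment of the library sizes, and changes as the log2 fold change of p140Cap against mock with its standard error (SE) from edgeR's quasi-likelihood test, adjusted by Benjamini-Hochberg over the 11800 genes with enough reads. A gene was called at an adjusted p under 0.05. Srcin1, which encodes p140Cap, read 15.6, 12.8 and 16.6 CPM in mock libraries and 2265, 2520 and 2244 CPM in p140Cap libraries and so follows the labels.

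The lineage of the line was read from marker genes. Krt18 and Krt8, the paired simple-epithelial keratins, had mean levels of 1801 ± 25.6 and 1556 ± 112 CPM with mock and of 2134 ± 46.1 and 1670 ± 43.0 CPM with p140Cap (SD, n = 3). The basal keratins were almost absent, with between 4 and 9 reads of Krt5 and between 0 and 4 of Krt14 in a mock library, 1 read of each in p140Cap replicate 1 and none in its other replicates, and no read of Krt17 in any library. The luminal and basal lists were not read uniformly, however. The luminal keratin Krt19 had between 1 and 5 reads in a library and the luminal progenitor marker Prom1 at most 1, as low as the basal keratins, while Itga6 and Vim of the basal list stood at 463 ± 18.5 and 209 ± 11.2 CPM in mock cells (SD, n = 3). Krt19, Prom1 and the basal keratins were picked out after their values were seen.

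Among the 10 lineage factors, 7 had enough reads for the test, and 4 of these were higher and 2 lower in p140Cap cells. Sox9, Ehf, Sox10 and Tfap2c rose by less than 0.5 log2 units each, Foxa1 fell by more than 1 log2 unit, Elf5 fell slightly and Gata3 was not called. Esr1, Pgr and Trp63 had too few reads. The 6 called factors are 85.7% of those tested, in a comparison where 71.1% of all tested genes were called, 35.2% higher and 35.9% lower. With 7 factors tested, that share is not set apart from the background, and no result about the factors is read from it. Median log2 fold change was 0.26 over the 7 factors and -0.00 over all tested genes. In whole-culture RNA, fewer cells of a type and less RNA per cell cannot be told apart.

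**Figure D1:**
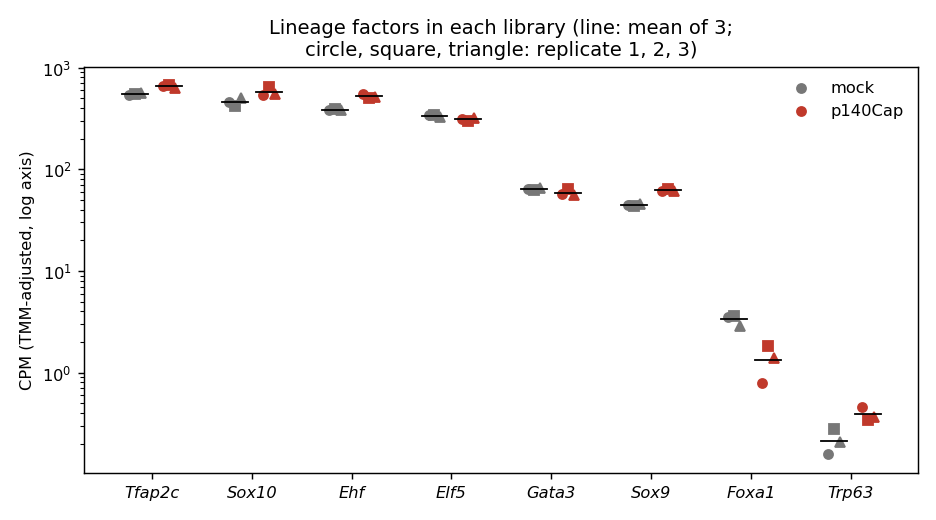
CPM (log axis) of the 8 lineage factors with more than a few reads, in each mock (gray) and p140Cap (red) library, with the mean of 3 libraries as a line. Circles, squares and triangles are replicates 1, 2 and 3, Sox10, Tfap2c, Ehf and Elf5 lie between 302 and 673 CPM, Foxa1 between 0.791 and 3.60 CPM, and Trp63 below 0.5 CPM.

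Foxa1 showed the largest change of the 7 tested factors. Its gene (ENSMUSG00000035451) lies on chromosome 12 of GRCm38.p6, from 57540628 to 57548029 on the minus strand, with no annotated gene overlapping it. It had 271, 143 and 96 reads in mock libraries and 12, 27 and 19 reads in p140Cap libraries. These correspond to 3.54, 3.60 and 2.88 CPM in mock cells and 0.791, 1.84 and 1.40 CPM in p140Cap cells, so the highest p140Cap library was below the lowest mock library. By edgeR, the log2 difference came to -1.34 (SE 0.22, adjusted p = 4.00e-05), and 5.38% of tested genes changed by more in either direction. Counting error alone, taken on reads pooled over each group, puts the level in p140Cap cells at 0.391 times that in mock cells (95% exact binomial interval 0.293 to 0.514). Foxa1 was a rare transcript in both groups, since 88.2% of tested genes had a higher level per kb of merged exons.

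Promoter entries from RefSeq (GRCm38.p6), each for 1 transcript start, were available for Gata3, Elf5, Foxa1, Esr1 and Pgr. Several of these starts lie inside the gene span given here. The Foxa1 start is 1918 bases from the 5′ end of its span, that of Gata3 9353 bases, that of Pgr 933 bases and the second starts of Elf5 and Esr1 11970 and 98169 bases. The 250 bases before each transcript start were searched on both strands for short motifs that the factor families bind. The FOX motif was searched as TGTTTAC and the SOX motif as ACAATG. For the AP-2 family the motif searched was GCCNNNGGC, which reads the same on both strands. The motif of GATA factors was searched as GATAA, and that of ETS factors such as ELF5 and EHF was searched as CCGGAAG. Windows of Foxa1, Gata3 and Elf5 are shown because these are the tested factors with a negative log2 fold change. They run 5′ to 3′ on the gene's strand with matches in capitals, and are printed up to the first base of an annotated exon of the gene.

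Foxa1 (chr12:57546159-57546361, minus strand): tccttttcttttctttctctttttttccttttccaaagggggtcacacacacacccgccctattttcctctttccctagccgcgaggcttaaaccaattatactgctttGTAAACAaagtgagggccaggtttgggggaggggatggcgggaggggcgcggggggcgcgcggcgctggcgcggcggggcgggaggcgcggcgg
Gata3 (chr2:9878749-9878850, minus strand): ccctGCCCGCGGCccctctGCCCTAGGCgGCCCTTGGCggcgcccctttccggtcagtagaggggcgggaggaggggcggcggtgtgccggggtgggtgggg
Elf5, second start (chr2:103423818-103424061, plus strand): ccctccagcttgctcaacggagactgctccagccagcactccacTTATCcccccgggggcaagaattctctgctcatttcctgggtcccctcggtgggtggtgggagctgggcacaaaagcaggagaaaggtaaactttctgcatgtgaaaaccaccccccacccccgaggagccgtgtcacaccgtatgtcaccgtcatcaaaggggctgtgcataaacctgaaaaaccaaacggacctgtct

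The Foxa1 window held the FOX letters once, on the opposite strand and beginning 141 bases before that transcript start, so within the gene span, where 3.17% of 32851 windows of the same length hold them. That of Gata3, also within its span, held the AP-2 letters 3 times, beginning 246, 231 and 221 bases before the transcript start, against 13.7% of windows with at least 1 match. Elf5 had the SOX letters once before its first start, in a window that is all annotated exon and is not printed (10.7% of windows), and the GATA letters once before its second (22.6%). None of the windows held the ETS letters (6.91%). The windows of Pgr and of the second start of Esr1 held none of the letters, and that of the first Esr1 start held the GATA letters once and the AP-2 letters once. These are matches of letters in a window, and binding was not measured.

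The hormone receptors downstream of FOXA1 in hormone-sensing cells were practically unread. Esr1 (ENSMUSG00000019768; chromosome 10, 4611989 to 5005633, plus strand) had 1 read in mock replicate 1, 1 read in p140Cap replicate 3 and none in the other libraries. Pgr (ENSMUSG00000031870; chromosome 9, 8898900 to 8968611, plus strand) had a single read in mock replicate 2. A total of 3 reads over a group, taken as the detection floor, corresponds to 0.0201 CPM in mock and 0.0690 CPM in p140Cap cells, and both genes lay below it in both groups, so no fold is given. Differences in Esr1 or Pgr were not detectable at this depth.

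Gata3 and Tfap2c, which hold luminal fate, were both well expressed. Gata3 (ENSMUSG00000015619; chromosome 2, 9857078 to 9887953, minus strand) read 63.8, 62.98 and 65.9 CPM in mock libraries and 56.9, 63.8 and 56.3 CPM in p140Cap libraries. Replicate 2 of the p140Cap cells fell within the mock range, so the groups overlapped. The difference of -0.12 on the log2 scale (SE 0.06, 95% interval -0.24 to -0.0031) was not called (adjusted p = 0.0620, edgeR). Without that library the difference was -0.18 and was called (adjusted p = 0.00775, edgeR), while the other alternatives put it between -0.18 and -0.09 and 3 of them called it. Per kb, Gata3 exceeded Foxa1 13.3, 12.95 and 16.9 times in mock libraries and 53.2, 25.7 and 29.8 times in p140Cap libraries, without overlap. The exact permutation test (two-sided) gave p = 0.1, the smallest possible here, and 0.15 after Benjamini-Hochberg adjustment over 3 ratios. This ratio was chosen after the values were seen. Annotated long non-coding genes share exonic bases with Gata3 on both strands, and it is not stated whether reads were assigned by strand.

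Tfap2c (ENSMUSG00000028640; chromosome 2, 172545678 to 172558622, plus strand) read 538, 544 and 556 CPM in mock libraries and 653, 673 and 635 CPM in p140Cap libraries. All p140Cap libraries were above all mock libraries. It rose by 0.26 log2 units (SE 0.05, adjusted p = 9.32e-05, edgeR), or 1.20-fold, which 57.4% of tested genes exceeded in size. Only 1.28% of tested genes had a higher level per kb than Tfap2c, which placed AP-2γ with Sox10 at the top of the lineage factors. Its paralog Tfap2a, named after its values were seen, also rose, by 0.20 log2 units (SE 0.06, adjusted p = 0.00591, edgeR).

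Elf5 and Ehf encode ETS factors and are neighbors on chromosome 2, 108.8 kb apart in opposite orientation, with no other protein-coding gene between them in RefSeq. Elf5 (ENSMUSG00000027186; 103412098 to 103450989, plus strand) read 342, 339 and 323 CPM in mock libraries and 309, 302 and 316 CPM in p140Cap libraries. Its fall of 0.12 log2 units (SE 0.05) passed the threshold narrowly (adjusted p = 0.0356, edgeR). That call was lost without mock replicate 1 or 2 or p140Cap replicate 1 or 2, where the adjusted p from edgeR lay between 0.0717 and 0.123 and the log2 fold change between -0.12 and -0.10.

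Ehf (ENSMUSG00000012350; 103263431 to 103303275, minus strand) moved the other way. It read 387, 391.6 and 381 CPM in mock libraries and 546, 501 and 520 CPM in p140Cap libraries, a rise of 0.43 log2 units (SE 0.05, adjusted p = 4.52e-07, edgeR). Every p140Cap library lay above every mock library. Per kb of exons, the ratio of Ehf to Elf5 within a library was 1.18, 1.21 and 1.23 in mock cells and 1.85, 1.74 and 1.72 in p140Cap cells. These ranges did not overlap, and the exact permutation test (two-sided) gave p = 0.1, the smallest that 3 against 3 libraries allow (0.15 after Benjamini-Hochberg adjustment over 3 ratios, all chosen after the values were seen).

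**Figure D2:**
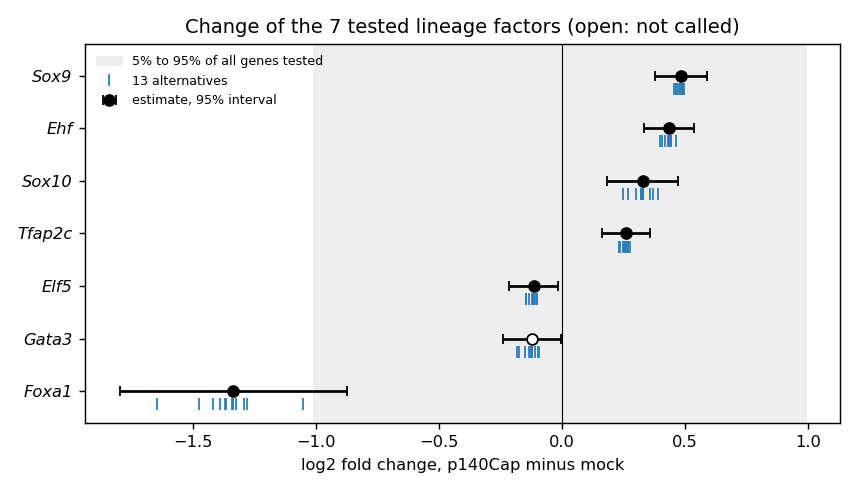
Log2 fold change (p140Cap minus mock) of the 7 tested lineage factors, with the 95% interval as a bar, and the values under 13 alternative analyses as blue ticks below each point. Gray shading spans 5% to 95% of all tested genes (-1.01 to 0.99), Foxa1 alone lies outside it at -1.34, and Gata3 (open) and Elf5 lie just below 0.

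Sox9 and Sox10, which encode SOXE factors, both rose. Sox10 (ENSMUSG00000033006; chromosome 15, 79154913 to 79164490, minus strand), best known as a neural crest factor, read 457, 422 and 501 CPM in mock libraries and 543, 640 and 549 CPM in p140Cap libraries. The spread was wider than for the other abundant factors, with p140Cap replicate 2 the highest, but the groups did not overlap. By edgeR it rose by 0.33 log2 units (SE 0.07, adjusted p = 0.000408), and by between 0.25 and 0.39 under the alternatives. Only 1.25% of tested genes had a higher level per kb.

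Sox9 (ENSMUSG00000000567; chromosome 11, 112782210 to 112787757, plus strand) was the scarcer of the pair. It read 44.4, 43.8 and 45.4 CPM in mock libraries and 61.2, 63.9 and 61.7 CPM in p140Cap libraries, with a narrow spread and no overlap. Sox9 had the largest rise of the tested factors, at 0.48 on the log2 scale (SE 0.05, adjusted p = 2.28e-07 by edgeR). A long non-coding gene on the other strand shares exonic bases with it. Within a library, Sox10 per kb was 12.9 ± 0.873 times Sox9 in mock cells and 11.6 ± 0.815 times in p140Cap cells (SD, n = 3 each), and these ratios overlapped (exact permutation test, two-sided, p = 0.2, also 0.2 after adjustment). SOX8, the remaining SOXE factor, went in the other direction. Sox8 fell from 26.9 ± 0.495 to 11.2 ± 0.503 CPM (SD, n = 3 each), by 1.27 log2 units (SE 0.07, adjusted p = 1.71e-10, edgeR).

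Trp63 (ENSMUSG00000022510; chromosome 16, 25683763 to 25892088, plus strand), the basal determinant, was barely read. It had 12, 11 and 7 reads in mock libraries and 7, 5 and 5 reads in p140Cap libraries, or between 0.157 and 0.277 CPM and between 0.341 and 0.461 CPM. The normalized values did not overlap, and on pooled reads the level in p140Cap cells was 1.95 times that in mock cells (95% exact binomial interval 1.01 to 3.65, counting error only). It had too few reads for the main test. The alternatives without a p140Cap library admitted it only through the p140Cap group, where it was higher, so nothing is read from them. With no filter on low counts it was not called (log2 fold change 0.89, adjusted p = 0.162, edgeR). Normalized values of the groups were apart for 6 of the 7 tested factors, while 73.4% of all tested genes show this.

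Compared per kb of exons, the factors formed an order that barely differed between groups. In mock cells Tfap2c (140 ± 2.40 CPM per kb) and Sox10 (138 ± 11.9) led and overlapped, followed by Ehf (68.8 ± 0.932), Elf5 (56.9 ± 1.72), Gata3 (14.1 ± 0.335), Sox9 (10.7 ± 0.199), Foxa1 (0.993 ± 0.118) and Trp63 (0.0256 ± 0.00715), none of which overlapped its neighbor (SD, n = 3). In p140Cap cells Sox10 (173 ± 16.3) and Tfap2c (168 ± 4.99) again overlapped. Sox9 (14.9 ± 0.346) then stood above Gata3 (12.97 ± 0.919), the reverse of their order in mock cells, and both orders were without overlap. The summed level of the 10 factors was between 419.4 and 442.5 CPM per kb in mock libraries and between 501.8 and 535.6 in p140Cap libraries. Within that sum, Elf5 went from 13.3% ± 0.726 to 10.2% ± 0.576, Gata3 from 3.28% ± 0.0142 to 2.52% ± 0.0897 and Ehf from 16.0% ± 0.647 to 18.1% ± 1.28 (SD, n = 3 each). Because the sum rose, a share can fall by more than the level itself. The change of Gata3 was not called, and its levels overlapped between groups. Tfap2c kept 32.6% ± 0.593 in mock cells and 32.6% ± 0.378 in p140Cap cells.

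**Figure D3:**
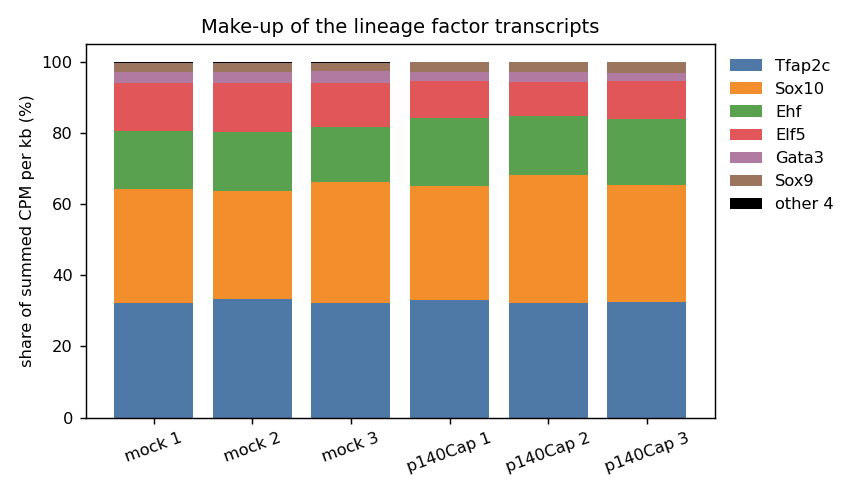
Share (%) of each factor in the summed CPM per kb of the 10 lineage factors, for each of the 3 mock and 3 p140Cap libraries, with bars stacked from 0 to 100. Tfap2c and Sox10 together fill more than 60% of every bar, the Elf5 segment is narrower in the 3 p140Cap libraries, and the other 4 factors (Foxa1, Trp63, Esr1 and Pgr) are barely visible.

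Genes of the same families as the factors were mostly silent, with 15 of 26 below the limit for the test. Of the 11 tested, 6 were higher and 3 lower, and the median log2 fold change was 0.20. The called share was 81.8% of those tested, against 71.1% of all tested genes. Below the level set for naming, Foxa3, a paralog of Foxa1 picked out after its values were seen, had means of 0.280 ± 0.0253 CPM with mock and 0.961 ± 0.156 CPM with p140Cap (SD, n = 3 each; log2 fold change 1.77, SE 0.31, adjusted p = 9.42e-05, edgeR). Its mock libraries were below the limit of the filter on low counts, so it was tested only through the group where it was high, and nothing is read from that p. Esrrg, an orphan receptor related to the estrogen receptor and picked out likewise, rose by 1.13 log2 units (SE 0.20, adjusted p = 7.42e-05, edgeR). Besides Sox8, Trp53, the tumor suppressor relative of p63, fell by 0.54 log2 units (SE 0.05, adjusted p = 1.25e-07, edgeR) and Elf3, an epithelial relative of Elf5 and Ehf, rose by 0.54 (SE 0.07, adjusted p = 1.34e-06). Other regulators of mammary lineages were measured more fully, with 19 of 23 tested, 12 higher, 3 lower, 78.9% called and a median of 0.19. Myb, a luminal regulator that estrogen induces, fell from 11.4 ± 0.913 to 3.15 ± 0.722 CPM (SD, n = 3 each), by 1.87 log2 units. Kdm5b, a histone demethylase, rose by 0.83 (SE 0.05, adjusted p = 2.22e-10, edgeR), and Lbh, linked to basal stem cells, by 0.79 (SE 0.05, adjusted p = 4.47e-10). Sox4 and Cebpb had the highest levels per kb of this list. Sox4 was higher in p140Cap cells (log2 fold change 0.20, adjusted p = 0.00180, edgeR) and Cebpb was not called (0.16, adjusted p = 0.122).

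Of 14 genes that respond to estrogen or progesterone in the mammary gland, 6 were tested and Tnfsf11, Tff1, Tff3 and Agr2 had no read in any library. Among the 6, 2 were higher, 1 was lower and 3 were not called, so that 50% were called against 71.1% of all tested genes, and their median was 0.05 on the log2 scale. The number called lower was 2 with mock replicate 2 or any single p140Cap replicate left out, and 3 with no filter on low counts. Areg, the growth factor through which estrogen acts on the duct, fell by 0.45 log2 units (SE 0.11, adjusted p = 0.00126, edgeR). Igf1r rose by 0.82 (SE 0.05, adjusted p = 9.20e-10) and Rara by 0.56 (SE 0.07, adjusted p = 1.465e-06). Ccnd1 and Stc2, with the highest levels per kb, were not called (log2 fold change 0.02 and -0.10, adjusted p = 0.738 and 0.169, edgeR). Greb1, an estrogen receptor cofactor and target that was picked out for its values, counted 22, 13 and 15 reads in mock libraries and 1, 0 and 0 in p140Cap libraries, a ratio on pooled reads of 0.0688 (95% exact binomial interval 0.00171 to 0.402, counting error only). It had too few reads for the main test. The alternatives without a p140Cap library admitted it only through the mock group, so nothing is read from their calls, and with no filter on low counts its adjusted p from edgeR was 0.000458.

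Milk and secretion genes, the output of the alveolar fate in which Elf5 acts, split into read and unread genes. Csn1s1, Csn2 and Wap had between 0 and 2 reads in any library, and 6 of 12 genes were not tested. Of the 6 tested, 5 were higher and none lower, with Btn1a1, named after its values were seen, not called (log2 fold change -0.38, unadjusted p = 0.0385, adjusted p = 0.0538, edgeR), and the median was 0.505. Under 5 of 13 alternatives, among them those without mock replicate 3 or p140Cap replicate 2, 1 gene of the list was called lower. Of all tested genes, 35.2% were called higher. Csn3, which encodes κ-casein, rose from 4164 ± 130 to 8115 ± 426 CPM (SD, n = 3 each; log2 fold change 0.96, SE 0.05, adjusted p = 6.94e-11, edgeR). Xdh, needed to secrete milk fat, rose by 0.91 log2 units (SE 0.05, adjusted p = 3.93e-11), Plin2, a lipid droplet protein, by 0.52 (SE 0.05, adjusted p = 7.74e-08) and Mfge8, a milk fat globule protein, by 0.30 (SE 0.06, adjusted p = 0.000229).

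Genes known as SOXE targets in cartilage, glia or pigment cells had 10 of 13 members tested, of which 6 were higher, 1 was lower, 70% were called against 71.1% of all tested genes, and the median was 0.24. Without mock replicate 2, the number called lower was 2. Col9a1, a cartilage collagen, was the most abundant per kb and rose from 623 ± 24.5 to 849 ± 23.4 CPM (SD, n = 3 each; log2 fold change 0.45, SE 0.05, adjusted p = 3.53e-07, edgeR). Gjb1, a gap junction gene of myelinating glia, rose by 0.89 (SE 0.06, adjusted p = 2.08e-09), Cdh19, a cadherin of Schwann cell precursors, by 0.48 (SE 0.07, adjusted p = 5.57e-06) and Erbb3, the HER2 partner receptor, by 0.26 (SE 0.05, adjusted p = 0.000123). Col2a1, the major cartilage collagen, fell by 1.38 log2 units (SE 0.09, adjusted p = 8.63e-10).

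Genes linked to p63 in basal or stratified epithelium were widely read although Trp63 was not. All 12 tested of 14 were called, 7 lower and 5 higher, with a median log2 fold change of -0.49. Over all tested genes, 71.1% were called, 35.9% lower and 35.2% higher. Lamb3, a laminin-332 chain, fell from 27.6 ± 1.03 to 9.66 ± 1.76 CPM (SD, n = 3 each; log2 fold change -1.52, SE 0.09, adjusted p = 5.12e-10, edgeR) and Fgfr2 fell by 1.33 log2 units (SE 0.12, adjusted p = 7.04e-08). Jag2, a Notch ligand, rose by 1.23 (SE 0.16, adjusted p = 3.30e-06). The integrin chains Itga3 and Itgb4 were the most abundant per kb, and Itga3 fell by 0.48 (SE 0.06) while Itgb4 rose by 0.28 (SE 0.06; adjusted p = 9.04e-07 and 0.000687, edgeR).

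**Figure D4:**
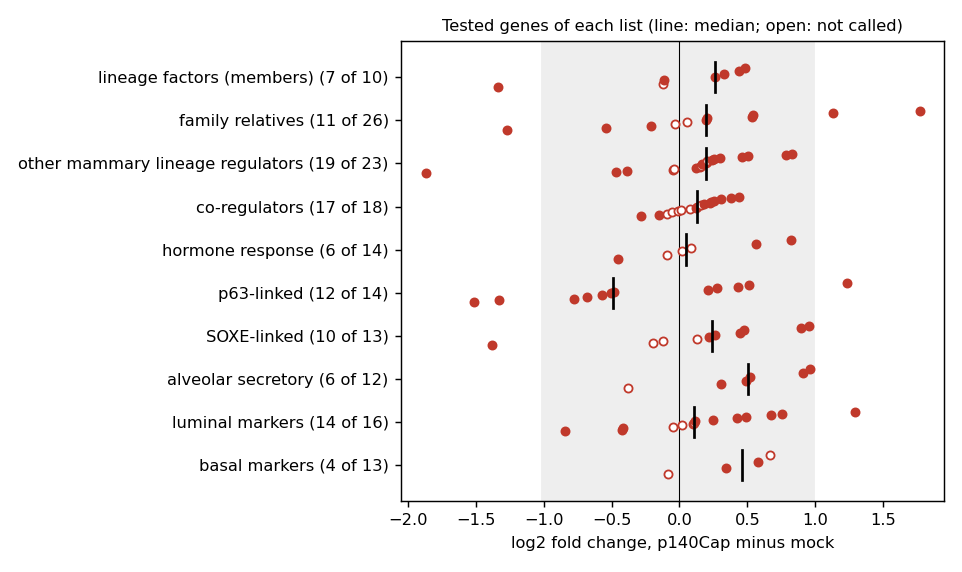
Log2 fold change (p140Cap minus mock) of each tested gene of the lineage factors and of 9 related gene lists, with the number tested of the number listed in brackets. Filled points were called, open points were not, black lines are medians and shading spans 5% to 95% of all tested genes, and the p63-linked list has the lowest median at -0.49 and the alveolar secretory list the highest at 0.505.

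Among luminal markers, 14 of 16 were tested, 7 were higher and 3 lower, 71.4% were called against 71.1% of all tested genes, and the median was 0.11. Cd14, a marker of luminal progenitors, rose from 101 ± 3.64 to 247 ± 5.70 CPM (SD, n = 3 each; log2 fold change 1.29, SE 0.05, adjusted p = 1.43e-12, edgeR) and Muc1, an apical mucin, rose by 0.75 (SE 0.09, adjusted p = 1.35e-06). Krt7, a ductal keratin, fell by 0.84 (SE 0.06, adjusted p = 9.45e-10), Krt18 rose by 0.24 (SE 0.04, adjusted p = 0.000123) and Krt8 was not called (0.10, adjusted p = 0.101). Of 13 basal markers 4 were tested, and the 2 called ones, both higher, were Itga6 (0.58, SE 0.05, adjusted p = 3.72e-08, edgeR) and Vim (0.35, SE 0.05, adjusted p = 1.72e-05), which are not restricted to basal cells.

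Markers of other cell types were near absent. Summed CPM of 6 fibroblast markers lay between 9.93 and 10.5 in mock libraries and between 11.3 and 14.1 in p140Cap libraries, with Col1a2, Col3a1, Dcn and Lum at 0 reads in all libraries. The other sums, in the same order of groups, were between 0.210 and 0.478 against 0.477 and 0.734 for 4 endothelial markers, between 2.08 and 2.34 against 3.23 and 4.09 for 7 leukocyte markers, and between 0.0901 and 0.183 against 0.272 and 0.588 for 3 adipocyte markers. Kdr, Ptprc, Cd3e and Adgre1 were at 0 reads throughout. Col1a1 (0.80, adjusted p = 0.000244), Cd68 (0.83, adjusted p = 0.000119) and Pecam1 (1.25, adjusted p = 0.0133, edgeR) were called higher at a mean of at most 5.02 CPM, while Pdgfra was not called (0.09, adjusted p = 0.499). Pecam1, at under 20 reads in every library, passed the filter on low counts only through the p140Cap group, so nothing is read from its p, and its call was lost under 5 of 13 alternatives, among them those without mock replicate 1, p140Cap replicate 1 or p140Cap replicate 3. Tek, Csf1r, Fabp4 and Adipoq were not tested, and 1 adipocyte marker was called higher with no filter on low counts and without p140Cap replicate 2. The part of these small differences in the changes above was not tested.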

How the data were processed

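RNA-Seq of 3 mock and 3 p140Cap TuBo libraries was used. By the study's methods, stranded Illumina libraries were sequenced on an Illumina NextSeq, samples and controls being mixed in each run, and processed with docker4seq. The submitters' processing notes name STAR 2.5, RSEM and the build mm10 with no role, while the study's data statement names GRCm39, and the table holds no coordinates that would settle which was used. Neither the annotation release nor the strand setting is given in the sources used here. The authors deposited counts, whole numbers of reads per gene and library without normalization, which are rounded estimates if RSEM made them.

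Counts were tested in R 4.3.3 with edgeR 4.0.16 (TMM factors, filterByExpr by group, quasi-likelihood test with condition as sole term, Benjamini-Hochberg adjustment). The SE was taken as the size of the log2 change over the root of its F value. The code was tested on simulated data. Positions and promoters are from RefSeq GRCm38.p6, matched by symbol, exon lengths and overlaps from GENCODE on GRCm39, matched by Ensembl identifier (98.6% of genes). Promoter windows were matched to the GRCm39 sequence to find where annotated exons of the gene begin. Where a symbol stood on 2 rows, the row with more reads was taken.

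Members and gene lists were chosen with earlier results of these data known. Named genes are the members, Srcin1 and, from each list, the 3 called genes that changed most (mean log2 CPM 1 or more) and the 2 highest per kb, fewer where a list had fewer. Some genes that this rule selects are not reported here. The other genes named were chosen after their values were seen. Replicate libraries differed from each other by a mean chi-square of 1.75 to 10.7 per gene (sampling noise gives 1). They were therefore not repeat reads of the same library, and each was counted as a sample. This does not show that they came from separate cultures. Alternatives were limma-voom (limma 3.58.1), DESeq2 1.42.0, RLE size factors, testing all genes read at all, requiring 10 reads in each library, thinning to the smallest library, leaving out each library, and the replicate number as a block.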

Additional observations from a re-analysis of the deposited data

How the results depend on the processing

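Under 13 alternatives, Foxa1, Sox9, Sox10, Ehf and Tfap2c kept their direction and their call. Their log2 fold changes lay between -1.65 and -1.06 for Foxa1, 0.45 and 0.49 for Sox9, 0.25 and 0.39 for Sox10, 0.40 and 0.46 for Ehf and 0.23 and 0.28 for Tfap2c. The number of factors called higher was 4 under every alternative, and the number called lower was 1 or 2 with each library left out in turn, against 2 as reported, because Elf5 lost its call without mock replicate 1, mock replicate 2 or p140Cap replicate 1. It lost it without p140Cap replicate 2 as well (adjusted p = 0.0717, edgeR), where Gata3 was called and the number stayed at 2. Gata3 was called lower without a filter on low counts (adjusted p = 0.0201), with at least 10 reads in every library (0.0498), in thinned libraries (0.0182) and without p140Cap replicate 2, all by edgeR. Log2 fold changes of the genes tested as reported shifted by a median of -0.0304 without the filter and of -0.0062 with 10 reads required. Over all genes, between 7851 and 8716 were called. Both groups carry replicate numbers 1 to 3, but same-numbered libraries did not deviate together (r of -0.03, -0.11 and -0.06 for numbers 1 to 3 across genes), so the numbers were not taken as a pairing. With the replicate block, 1 factor was called lower, since Elf5 had an adjusted p of 0.0734 (edgeR), and 8034 genes were called in all. No other call of a factor changed with the block. Of 338 values for the related lists, 318 stayed within 1.5 times the reported count. The cause of the shifts was not tested. Thinned to the smallest library, Foxa1 was still called, at -1.48. Esr1, Pgr, Trp63 and Greb1 had too few reads for the reported test.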

Other observations

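Coactivators, corepressors and partners of the GATA, FOXA and hormone receptor factors formed another list. Of 18 such genes 17 were tested, 9 were higher, 2 were lower and 6 were not called by edgeR's quasi-likelihood test, with a median log2 fold change of 0.13. The number called lower was 1 without mock replicate 1 or p140Cap replicate 3. The called share was 64.7% of those tested, against 71.1% of all tested genes. Ncoa3, a nuclear receptor coactivator, rose by 0.38 log2 units (SE 0.06, adjusted p = 1.22e-05, edgeR) and Kmt2c, an enhancer methyltransferase, by 0.31 (SE 0.06, adjusted p = 0.000418). The corepressor gene Ncor1, among the highest of this list per kb, rose by 0.22 log2 units (SE 0.05, adjusted p = 0.000743, edgeR), from 329 ± 17.1 to 385 ± 8.64 CPM (SD, n = 3 each).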
